A study of Caenorhabditis elegans with 2 samples.

Results

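The peaks described here are the autosomal promoter peaks of a tagged homeobox factor, CEH-19, in late embryos of Caenorhabditis elegans, at a distance from small RNA genes. They were taken from the list of peaks that the authors kept as reproducible between replicates. The list marks 1 base of each peak as its summit. A peak was included when its summit lay on 1 of the 5 autosomes. The summit also had to lie from 500 bp upstream to 100 bp downstream of the annotated 5' end of a protein-coding gene. A peak with a tRNA, snoRNA or snRNA gene within 200 bp was left out. The rule gave 259 peaks of the 1112 in the reproducible list, which is 32.1% (95% exact interval 28.9 to 35.5) of the 806 autosomal ones. A further 26 autosomal promoter peaks had a small RNA gene within 200 bp (17 tRNA, 8 snoRNA and 1 snRNA gene) and were not included.

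The study had a single group with 2 biological replicates, numbered 2 and 3 by the labels, and no second condition. Both came from strain OP739, which carries the insertion wgIs739 in an unc-119(tm4063) background, as mixed-sex late embryos labelled 5 hours and obtained by bleaching. An anti-GFP antibody was used for chromatin immunoprecipitation (ChIP) after sonication to 200 to 800 bp. The insertion holds ceh-19 tagged with TY1, EGFP and 3xFLAG, together with a working copy, unc-119(+). Both replicates therefore carried 1 and the same integrated transgene, and the embryos were whole animals of many cell types. A precipitation from animals without the tagged protein was not analysed here, so dependence of the peaks on the tagged protein could not be tested.

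The factor is a homeodomain protein known from the MC motor neurons of the pharynx, where it is needed for fast pumping. A promoter is the stretch before a gene in which regulatory proteins and RNA polymerase assemble. Genes of C. elegans lie close together, and neighbours on opposite strands that point away from each other (head-to-head) can share the stretch between them. Many messages of this species are trans-spliced, so an annotated 5' end is often the splice site and not the base at which transcription began. In worm ChIP data, active promoters of broadly expressed genes are also known to give peaks with many unrelated factors.

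The sequence at the strongest summits is shown first, because G and C richness and a pair of short words turned out to be shared by many of these promoters. The 8 windows are the strongest of the 259 after leaving out windows that overlap an annotated untranslated region and those of 1 chromosome. Each reaches 50 bp to either side of the summit and is written 5' to 3' along the strand of the nearest gene, from the RefSeq copy of WBcel235 (ce11). Capitals mark GCGC and TTGCA (or TGCAA, its other strand), words that were chosen after counts at these summits had been seen.
atx-2: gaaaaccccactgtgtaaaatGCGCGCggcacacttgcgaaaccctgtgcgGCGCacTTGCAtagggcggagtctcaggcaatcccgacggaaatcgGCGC
idhg-1: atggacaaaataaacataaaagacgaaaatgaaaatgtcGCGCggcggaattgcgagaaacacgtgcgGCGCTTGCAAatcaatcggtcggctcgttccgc
tasp-1: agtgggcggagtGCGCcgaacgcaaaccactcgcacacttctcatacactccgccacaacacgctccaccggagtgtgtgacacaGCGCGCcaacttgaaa
rpl-3: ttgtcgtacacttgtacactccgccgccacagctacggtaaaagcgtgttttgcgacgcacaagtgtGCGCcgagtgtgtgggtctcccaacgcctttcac
W01D2.3: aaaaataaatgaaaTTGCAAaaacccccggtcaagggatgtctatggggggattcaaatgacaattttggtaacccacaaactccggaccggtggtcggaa
snx-13: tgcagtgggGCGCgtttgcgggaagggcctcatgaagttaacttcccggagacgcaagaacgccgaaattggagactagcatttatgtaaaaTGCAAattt
plrg-1: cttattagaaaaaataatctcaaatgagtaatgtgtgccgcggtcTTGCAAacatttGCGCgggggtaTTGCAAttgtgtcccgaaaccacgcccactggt
B0495.9: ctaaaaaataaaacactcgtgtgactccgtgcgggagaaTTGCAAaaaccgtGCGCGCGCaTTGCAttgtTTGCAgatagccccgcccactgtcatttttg

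These windows lie at chrIII:10461276-10461376, chrIII:4568685-4568785, chrIII:10759189-10759289, chrIII:3867534-3867634, chrII:14804477-14804577, chrIV:17087571-17087671, chrV:10808055-10808155 and chrII:7708713-7708813, in the order above. The window of atx-2 had 4 matches to GCGC and 1 to TTGCA, and that of B0495.9 had 3 and 4. TTGCAA reads the same on both strands and so gives 2 matches at 1 place, as in the single such place at W01D2.3. GCGC was absent from the window of W01D2.3, and TTGCA from those of tasp-1 and rpl-3. GAGAG, a repeat-like word tested below, occurred in none of the 8. It was present in the window of lin-59, which is not printed. The 3 strongest members that hold it and meet the same conditions as the 8 are shown for comparison, with GAGAG or its other strand CTCTC in capitals, at chrII:10169515-10169615, chrV:9344223-9344323 and chrIV:6645997-6646097.
daf-19: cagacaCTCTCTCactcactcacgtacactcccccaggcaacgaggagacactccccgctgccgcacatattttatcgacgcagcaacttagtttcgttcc
tos-1: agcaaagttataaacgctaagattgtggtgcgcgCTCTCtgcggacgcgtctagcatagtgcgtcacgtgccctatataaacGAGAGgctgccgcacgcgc
hil-7: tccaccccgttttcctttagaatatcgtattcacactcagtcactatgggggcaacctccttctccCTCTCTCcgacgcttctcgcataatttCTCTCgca

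A match is a description of letters and not a binding site. GCGC on either strand (it reads the same on both) was present at 143 of the 259 summits, or 55.2%. It was present in 13.5% of windows 300 bp to the side of the same summits and in 11.6% of windows centred 100 bp upstream of all 17242 autosomal protein-coding genes. TTGCA was present at 106 member summits (40.9%), against 22.4% of the flanks and 20.1% of the windows before all genes. Both words together were present at 73 summits (28.2%), against 4.63% of the flanks and 2.82% of the windows before all genes. These words were picked from the same summits, so no test is given. The compared windows also differ in G and C content, as given below, and the shares were not adjusted for it. Head-to-head and single promoters held GCGC at 62.0% and 52.2% of summits, and TTGCA at 43.0% and 40.4%.

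Autosomal intergenic peaks of the same list that lay outside promoters and away from small RNA genes (n = 211) held GCGC at 31.3% and TTGCA at 14.2% of their summits. Promoter regions of the authors' pooled list that did not reach the reproducible set (n = 3625) held them at 22.3% and 22.7%. GAGAG ran the other way between the peak classes. It was present at 77 of 259 promoter summits (29.7%, exact interval 24.2 to 35.7) and at 115 of 211 intergenic summits (54.5%). In the members' flanks it was present in 11.97% of windows, and in windows 100 bp upstream of all genes in 16.8%. The odds ratio of promoter against intergenic summits was 0.354 (95% interval 0.237 to 0.526; Fisher's exact test, two-sided, p = 6.6e-08, Benjamini-Hochberg adjusted p = 3.6e-07 over 11 tests). Against promoter regions below the set (23.3% with GAGAG) the odds ratio was 1.39 (1.04 to 1.85), which did not pass after adjustment (Fisher's exact test, p = 0.023, adjusted p = 0.0633). That comparison did pass when the strongest regions of a single replicate took the place of the list. The regions below then came from the same replicate's list. The adjustment there left out the tests in each replicate and so covered fewer tests. The odds ratios were 1.47 for replicate 3 alone (adjusted p = 0.0179, Fisher's exact test) and 1.68 for replicate 2 alone (adjusted p = 0.00137, Fisher's exact test). Among the other alternatives it passed in some and not in others, as given in the last section.

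Of the other words searched on both strands, ACACAC was found at 11.6% of member summits, 21.8% of intergenic summits, 4.51% of windows 100 bp upstream of all genes and 4.63% of the members' flanks. TAATTG or TAATTA, which hold the TAAT core that homeodomains are known to bind, were found at 22 of 259 summits (8.49%), less than the 14.6% of windows upstream of all genes and the 13.9% of the members' own flanks. The difference was not tested, and the compared windows also differ in G and C content, as given next. TATAAA, the letters of a TATA box, was found at 4.25% of summits, 14.4% of upstream windows and 6.56% of flanks. TTTCAG, the usual end of a worm intron and of a trans-splice acceptor, was found at 6.56% of summits, 14.2% of upstream windows and 23.6% of flanks. TAAACG was found at 3.09% of summits, below the 4.17% of upstream windows and above the 1.54% of flanks.

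The windows at member summits had a mean G and C content of 48.1% ± 8.88 (SD over 259 windows), against 36.5% in their flanks and 33.8% in windows 100 bp upstream of all genes. Intergenic summits had 50.4% and promoter regions below the set 40.2%. Along the distance from the summit the members' content was 49.98% in the 20 bp bin just right of the summit and 34.7% in the bin centred 110 bp away. At the same 110 bp the intergenic peaks were still at 45.2%. In these averages the G and C rich stretch was narrower at the promoters, a difference that was not tested.

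**Figure D1:**
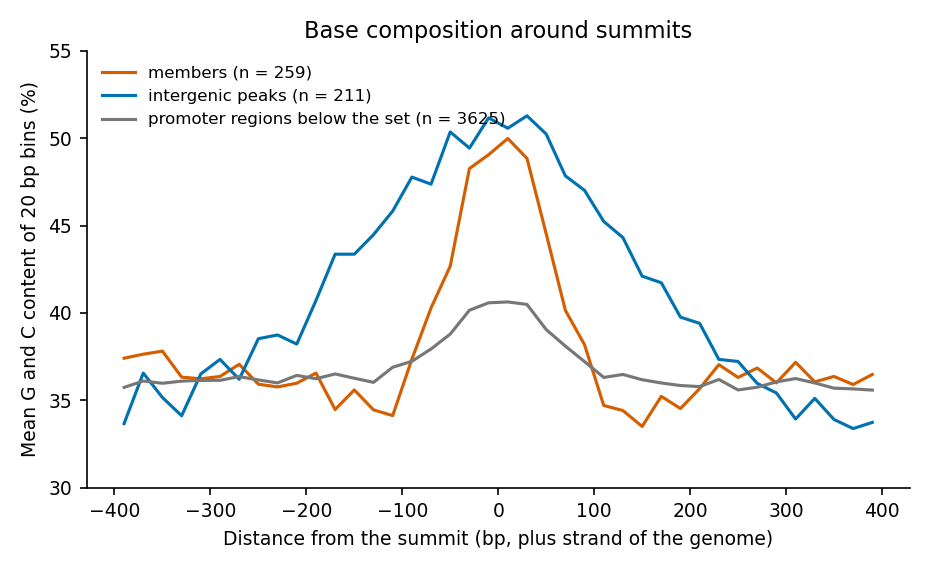
Mean G and C content in 20 bp bins (vertical axis, %) against the distance from the summit in bp on the plus strand (horizontal axis), for the 259 members, 211 autosomal intergenic peaks and 3625 promoter regions below the reproducible set. The members' curve stood at 49.98% in the bin just right of the summit and was at 34.7% 110 bp to its right, where the intergenic curve was at 45.2%.

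The signal values are those that the authors' peak caller gave each region (column 7 of the lists), in the pooled data and in each replicate alone. Values of the pooled list and of the replicates share reads and are not independent. Over the 259 members the pooled signal value ran from 113.2 to 693.3, with a median of 156.1 (quartiles 126.6 and 193.4). The reproducible list as a whole was made of regions from the top of the pooled list, so this lower bound follows from how the list was made. The median was 150.8 over all autosomal peaks and 139.2 over the intergenic ones. The weakest member, at the shared promoter of rpl-7A and set-21, had 113.2, and the strongest promoter region that missed the list, before B0348.10, had 112.8.

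The strongest member lay between ears-2, a mitochondrial glutamyl-tRNA synthetase, and uncp-18, a syntaxin-binding protein, with a signal value of 693.3 in the pooled list, 218.9 in replicate 2 and 471.4 in replicate 3. The second lay 63 bp before atx-2, the worm ataxin-2, an RNA-binding regulator of translation, with 594.3, 222.6 and 377.2. Next came idhg-1, a subunit of the isocitrate dehydrogenase of the citric acid cycle, with 467.8, 223.7 and 243.5. All 3 were far above the members' medians of 66.2 in replicate 2 and 91.4 in replicate 3. The promoter of tasp-1, a homologue of the taspase protease, had 431.6 pooled, 150.2 in replicate 2 and 277.3 in replicate 3. That of rpl-3, a protein of the large ribosomal subunit, had 414.6, 186.7 and 229.4. The promoter shared by snx-13, a sorting nexin, and snr-1, a core Sm protein of the splicing machinery, had 377.1 pooled. Its values were 87.0 in replicate 2 and 207.9 in replicate 3. The replicates differed there by more than the mean ratio given below, as they did at ears-2, atx-2 and tasp-1.

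Other genes among the 20 strongest members had varied roles. They included plrg-1, a spliceosome-associated protein (353.5), lin-59, a histone methyltransferase (316.6), F39G3.3, annotated as a histone H3-K79 methyltransferase (277.6), C46F11.4, an RNA helicase (287.4), npp-8, a nucleoporin (274.4), and pcrg-1, the homologue of a gene that lies next to Parkin in mammals (312.5). Also among them were W01D2.3, annotated as a receptor expression-enhancing protein (378.7), the uncharacterised B0495.9 (346.0), and daf-19, the RFX factor of ciliated sensory neurons (280.6). The strongest member on each autosome lay at spe-48 on I (394.3), W01D2.3 on II, atx-2 on III, ears-2 on IV and plrg-1 on V.

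The members were spread over the autosomes, with 60 on I, 48 on II, 53 on III, 47 on IV and 51 on V, chromosomes that carry 2878, 3449, 2640, 3281 and 4994 protein-coding genes. Chromosome V, with the most genes, thus had the fewest members relative to its number of genes. Chromosomes I and III, with the fewest genes, had the most members. These differences were not tested. Of the summits, 231 were intergenic, 13 in a 5' UTR, 12 in an intron and 3 in a coding exon. Another non-coding RNA gene lay within 200 bp at 28 members (25 ncRNA and 3 piRNA genes). The nearest genes were 254 different ones, of which 227 (89.4%) had an annotated 5' UTR, against 75.9% of all autosomal protein-coding genes. W01D2.3, daf-19, Y17D7C.2, Y43F8C.3 and Y97E10AR.1 were each the nearest gene of 2 members.

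The 2 members at daf-19 differed in their values. The summit at 219 bp upstream had 280.6 pooled, 103.5 in replicate 2 and 170.3 in replicate 3. The one at 421 bp upstream had 116.8, 88.4 and 33.5, the last being the lowest value of any member in replicate 3. At Y43F8C.3 both members matched 1 and the same region of replicate 2, the only such case. The 2 regions at daf-19 overlap, as do those at Y43F8C.3, Y97E10AR.1 and Y17D7C.2. Such pairs can share reads and need not be separate sites. The regions at W01D2.3 do not overlap.

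Over the members, 249 were matched to a region of replicate 2 and 254 to one of replicate 3 by a summit within 100 bp, 244 to both and none to neither. With summits within 50 bp, 193 were matched in both, so a single offset is not exact to a few bp. The mean log2 ratio of replicate 3 to replicate 2 was 0.50 with an SD of 0.57 over the 244 peaks, and replicate 3 was higher in 204 of them. An SD of 0.57 corresponds to a factor of 1.48, which is the scale on which a difference between 2 single promoters has to be read. Among the 1112 strongest regions of each replicate, 145 members (56.0%, exact interval 49.7 to 62.1) were found in both, 184 in replicate 2, 210 in replicate 3 and 10 in neither. The other 547 autosomal peaks were in both at 54.8% (50.6 to 59.1). By pooled signal they were 63 of the strongest 65 members, 51 of the next 65, 28 of the next 65 and 3 of the weakest 64. The pooled value contains both replicates, so this order is in part built in. Spearman's rho between the replicates was 0.43 over the 244 peaks of the same libraries, given as a description across peaks.

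**Figure D2:**
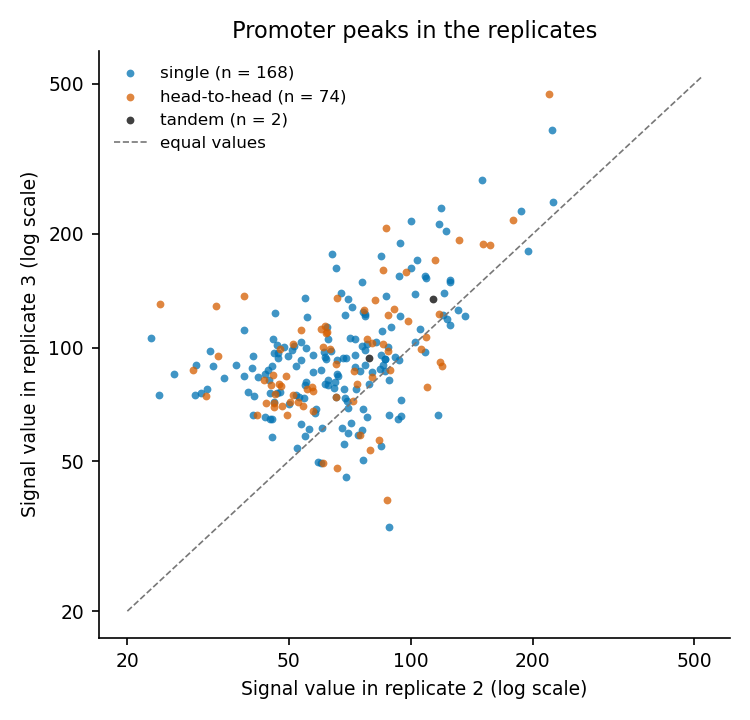
Signal value of each member in replicate 2 (horizontal axis, log scale) and replicate 3 (vertical axis, log scale), for the 244 members matched in both: 168 single, 74 head-to-head and 2 tandem promoters. Each point is 1 peak and the dashed line marks equal values. In 204 of 244 the point lies above the line, and the point farthest up is the ears-2 and uncp-18 promoter at 218.9 and 471.4.

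GCGC was held by 46 of the 65 strongest members, 31 of the next 65, 41 of the next 65 and 25 of the weakest 64. TTGCA was held by 34, 29, 25 and 18 in the same order, and GAGAG by 17, 17, 18 and 25. Mean G and C content was 51.0% in the first group and 45.8% in the last. These orders are descriptions, with no test.

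A summit counted as head-to-head when it lay in the promoter windows of 2 genes on opposite strands that point apart, and as single when it lay in the window of 1 gene. There were 79 head-to-head members, 178 single ones and 2 tandem ones, where both genes have the same strand (egl-30, a Gq alpha subunit, with C53H9.4 was one). The head-to-head share was 30.5% (exact interval 24.95 to 36.5), against 449 of 3625 promoter regions below the set (12.4%). The odds ratio was 3.10 (95% interval 2.31 to 4.14; Fisher's exact test, two-sided, p = 1.7e-13, adjusted p = 1.9e-12), and it ranged from 2.49 to 4.71 over the alternatives run, passing in each. Of all autosomal promoter bases away from small RNA genes, 6.51% lie in both windows of a divergent pair. Of the nearest genes, 109 of 254 (42.9%) had a divergent 5' end within 1000 bp, against 19.6% of all autosomal protein-coding genes. The peaks are the units of this test, and they all come from the same 2 libraries, so the p-value says nothing of how further cultures would vary.

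The strongest head-to-head members joined genes of unlike function. After ears-2 with uncp-18 came spe-48 with Y51F10.11 (394.3 pooled, 179.2 in replicate 2, 217.3 in replicate 3). Then came snx-13 with snr-1, and nmad-1, annotated as a DNA demethylase, with hach-1, a mitochondrial hydrolase (344.1, 156.4 and 187.1). The promoter of tre-1, a trehalase, and dad-1, a subunit of the oligosaccharyltransferase, had 337.5, 150.8 and 188.6. In each of these the value was higher in replicate 3. Further down, C16C10.4, annotated as a SAP18-like subunit, faced rnf-121, an E3 ubiquitin ligase (332.2), and vps-51, a tethering factor of vesicle traffic, faced lin-35, the worm retinoblastoma-like protein (295.1). The 8th to 10th were dnj-29, a J-domain chaperone, with ndua-2, a subunit of respiratory complex I (251.9), rpl-15 with K11H12.8 (245.7), and krr-1, a processome component, with gei-6 (233.3).

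The counts that follow are over the 79 peaks. In them fib-1, the fibrillarin gene, and mut-15 enter with both of the members between or beside them (177.7 and 114.7 pooled), whose regions overlap. The annotated 5' ends of a pair were 60 to 901 bp apart, with a median of 395 bp (quartiles 300 and 491.5). They were within 200 bp at 7 peaks, farther apart but within 400 bp in 35, within 600 bp in a further 27 and beyond that in 10. The summit lay between the ends at 68 of 79 peaks and inside a gene of the pair in 11. A head-to-head summit had to lie in both promoter windows, which are mostly upstream, so this count is in part built in. Where the summit lay between the ends, its distance to the nearer end had a median of 34.9% of the gap (quartiles 26.5 and 43.1). This distance cannot exceed 50%, the midpoint, so a median below 50% does not show an off-centre place. Neither value was compared with summits placed at random. At vps-51 and lin-35 the summit was almost central, with offsets of -207 and -211 bp. At tre-1 and dad-1 the offsets were -55 and -384 bp.

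**Figure D3:**
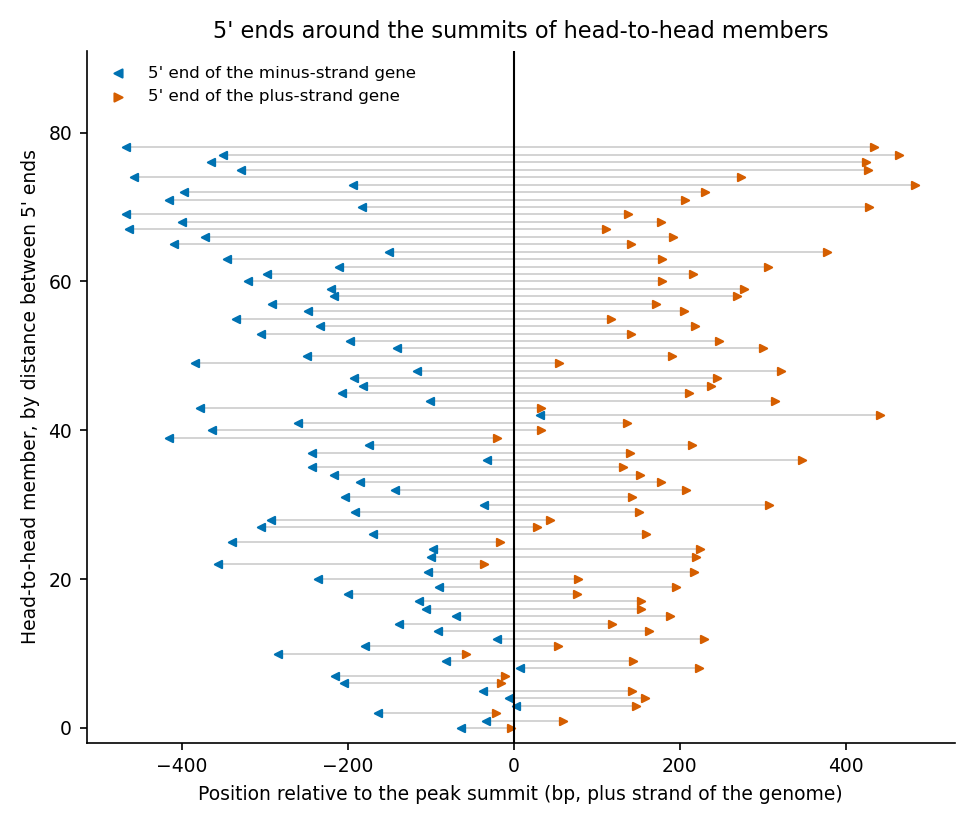
Annotated 5' ends of the 2 genes of each of the 79 head-to-head members relative to the peak summit at 0 (horizontal axis, bp on the plus strand), with members stacked by the distance between the ends (vertical axis, closest pair at the bottom). Left-pointing marks are minus-strand genes, right-pointing marks plus-strand genes and grey lines join a pair. In 68 of 79 rows the summit falls between the marks.

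Head-to-head and single promoters were not told apart by signal. The median pooled value was 160.7 in head-to-head and 155.6 in single members, with an odds ratio of being above the members' median of 1.24 (95% interval 0.706 to 2.19; Fisher's exact test, adjusted p = 0.644). In replicate 2 the medians were 65.5 and 67.8 (odds ratio 0.825, interval 0.462 to 1.47; Fisher's exact test, adjusted p = 0.644). In replicate 3 they were 89.4 and 92.8 (odds ratio 0.849, interval 0.478 to 1.50; Fisher's exact test, adjusted p = 0.644). The pooled and the single-replicate medians differed in opposite directions. An effect of up to about these bounds in either direction was not detectable with 79 and 178 peaks.

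Single members had a gene on the opposite strand as the nearest upstream neighbour in 93 cases and on the same strand in 71, and in 14 the 5' end lay inside another gene. The distance from the 5' end to that neighbour had a median of 1198 bp (quartiles 663.5 and 2820).

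Summits lay upstream of the annotated 5' end in most cases, with a median offset of -191 bp (quartiles -279 and -101, range -486 to 76). The fullest 100 bp bin was -200 to -101 bp, with 79 members (30.5%), against 19.1% of promoter regions below the set and 16.8% of promoter bases. Past the 5' end, from 1 to 100 bp, lay 14 members (5.41%), against 19.3% of the regions below the set and 17.7% of bases. These 2 bins were picked out after the counts were seen and were not tested. The bin from -100 to 0 bp, which was tested, held 50 members (19.3%) and 21.1% of the regions below the set, with an odds ratio of 0.893 (95% interval 0.636 to 1.23; Fisher's exact test, adjusted p = 0.644). Its direction reversed in 5 alternatives, none of which passed. Of the 14 summits past the 5' end, 11 were head-to-head, that is, upstream of the partner gene.

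The nearer of 2 ends was used for head-to-head members, which by construction makes their offsets shorter. Their median offset was -132 bp to the nearer end and -260 bp to the farther one, and that of single members was -219.5 bp. Within 100 bp of the nearest end lay 31 of 79 head-to-head summits (39.2%) and 31 of 178 single ones (17.4%). A test against no difference does not allow for the choice between 2 ends, so none is given and these shares are a description.

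**Figure D4:**
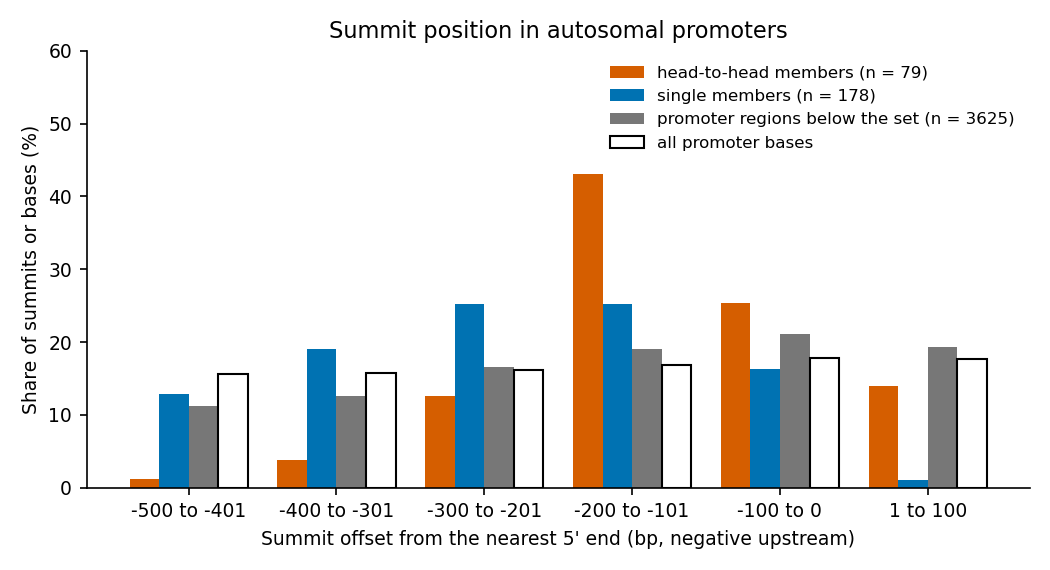
Share of summits (vertical axis, %) by offset from the nearest annotated 5' end in 100 bp bins (horizontal axis, negative upstream), for 79 head-to-head members, 178 single members and 3625 promoter regions below the reproducible set, with open bars for all autosomal promoter bases away from small RNA genes. The tallest bar is that of head-to-head members at -200 to -101 bp (43.0%), and single members past the 5' end are at 1.12%.

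Signal did not differ detectably with the offset either. Of 64 summits within 100 bp of the 5' end, 34 were above the median pooled value, against 95 of 195 farther ones (odds ratio 1.19, 95% interval 0.652 to 2.19; Fisher's exact test, adjusted p = 0.644). The odds ratio was 0.717 in replicate 2 and 1.18 in replicate 3, with intervals of 0.384 to 1.33 and 0.645 to 2.17. Among upstream summits, strong promoters occurred both near the 5' end and far from it, from B0495.9 at -53 bp to lin-59 at -473 bp. Past the 5' end the strongest was Y43F8C.3 at 68 bp (194.9 pooled, rank 63 of the members).

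At the bounds of the window, the member farthest upstream was that of sms-3 at -486 bp (177.2 pooled, 73.0 in replicate 2, 88.6 in replicate 3) and the one farthest downstream that of melo-1 at 76 bp (118.5, 30.3 and 75.9). Just outside were peaks at -502 bp of Y59A8B.24 (159.4, 56.7 and 121.7) and at 116 bp of scpl-3 (132.1, 41.1 and 101.6). The member nearest to a small RNA gene was at hil-7, a linker histone H1, 298 bp from a snoRNA gene (252.9 pooled). The excluded promoter peak farthest from its small RNA gene was at F38E11.9, 174 bp from an snRNA gene (135.6 pooled).

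A gene was counted as having a member when a member summit lay in its promoter window. This gave 335 of the 17242 autosomal protein-coding genes, or 1.94%, and the counts of each gene list below are to be read beside that share. The lists overlap the same few peaks where 2 listed genes share a head-to-head promoter. Lists were made from the starts of gene symbols (or, for the last, from the lack of a symbol), so a gene of the same family under another symbol is not counted. No test was made, since lists and peaks were chosen with earlier results known.

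Cytosolic ribosomal protein genes, translation factors and chaperones had shares with intervals that lie above 1.94%. Of 79 cytosolic ribosomal protein genes, 10 (12.7%, exact interval 6.24 to 22.0) had a member, with 6 of them being the nearest gene. Their values ran from rpl-3 through rps-24 (248.3 pooled, 69.0 in replicate 2, 122.0 in replicate 3), rpl-15 (245.7, 85.4 and 160.3) and rps-28 (239.6, 122.8 and 119.3) down to rpl-7A (113.2, 31.3 and 74.4). Of 70 mitochondrial ribosomal protein genes, mrpl-39 (120.2 pooled) had one (1.43%, interval 0.0362 to 7.70, which includes 1.94%). Among 36 translation factors there were 4 (11.1%, interval 3.11 to 26.1). They were eif-3.C (265.2), eif-3.E (154.5) and eif-3.D (119.7), subunits of initiation factor 3, and iff-2, an eIF5A (168.5). Of 32 aminoacyl-tRNA synthetases, ears-2 and mars-1 (123.9) had one (6.25%, interval 0.766 to 20.8, which includes 1.94%). The value of ears-2 was far above the members' median and that of mars-1 below it.

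Chaperones had the highest share of the 28 lists, by a margin within the intervals of the next ones, with 9 of 54 genes (16.7%, interval 7.92 to 29.3), of which 5 were the nearest gene. These were dnj-29 (251.9), hsp-1, a cytosolic Hsp70 (201.1), dnj-28 (190.9), the CCT chaperonin subunits cct-7 (173.9), cct-8 (153.8) and cct-1 (134.7), hsp-110 (145.1), dnj-19 (134.2) and dnj-13 (129.7). Of 34 genes in the cytoskeletal list, tba-2, an alpha-tubulin (159.2), had a member. That share was 2.94% (interval 0.0744 to 15.3, which includes the share of all genes). Of 33 proteasome genes, 3 lid or associated subunits had a member, rpn-7 (166.2), rpn-3 (145.1) and rpn-9 (126.7). They make 9.09% (interval 1.92 to 24.3, which just includes 1.94%). The genes rpn-3 and hsp-110 face each other across 1 peak and so are 1 observation.

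Mitochondrial energy genes were represented by 6 of 48 respiratory chain genes (12.5%, interval 4.73 to 25.2). They were ndua-2 (251.9) and ndub-8 (119.4) of complex I, cox-5B (190.8) and cox-5A (138.1) of cytochrome oxidase, and atp-3 (126.7) and atp-1 (125.1) of ATP synthase. The summits of cox-5B, atp-3 and atp-1 were at -5, -20 and 15 bp, close to the annotated 5' end within the limits of summit placement given above. At ndub-8 the replicates went against the usual order, with 87.4 in replicate 2 and 39.3 in replicate 3. The citric acid cycle list had 1 gene of 13, idhg-1 (7.69%, interval 0.195 to 36.0, which includes 1.94%).

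In the nucleus, 6 of 45 chromatin enzyme genes (13.3%, interval 5.05 to 26.8) had a member, among them jmjd-1.2, a histone demethylase (167.2), set-4, a Suv4-20 methyltransferase (141.9), swsn-3, a subunit of the SWI/SNF remodeller (126.3), and set-16, an MLL-type methyltransferase (125.3). Of 26 nucleoporin genes 3 had one, npp-8, npp-6 (199.4) and npp-14 (167.8), a share of 11.5% (interval 2.45 to 30.2). The splicing list had 2 of 38, snr-1 and prp-8 (122.6), or 5.26% (interval 0.644 to 17.7, which includes 1.94%). Of 62 genes of the transcription machinery 3 had one by their symbols, mdt-9 (189.9), rpb-11 (123.9) and mdt-26 (115.0). They make 4.84% (interval 1.01 to 13.5, which includes 1.94%). RefSeq gives the product of mdt-9 as a guanine nucleotide exchange factor and that of its neighbour Y62E10A.23, at the same peak, as a Mediator subunit, so this entry is uncertain. Of 68 histone genes 4 had a member (5.88%, interval 1.63 to 14.4, which includes 1.94%). They lie at the shared promoters of his-67 and his-68 (206.3) and of his-61 and his-62 (140.5). Histone genes have near-identical copies, and these 2 peaks are uncertain, as the treatment of reads that fit several copies is not stated.

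Vesicle traffic genes included 5 of 87 (5.75%, interval 1.89 to 12.9, which includes 1.94%). The strongest were snx-13, vps-51, arf-6 (183.1) and sec-61.G (174.1). The cell cycle list had 2 of 44, cdc-48.1, an AAA ATPase (243.8), and mcm-10, a replication factor (176.5). They make 4.55% (interval 0.555 to 15.5, which includes 1.94%). The ubiquitin list had 1 of 53, ubc-7 (133.0), or 1.89% (interval 0.0478 to 10.1), close to the share of all genes.

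In the other lists, 1 homeobox gene of the ceh series had a member, ceh-38, a onecut factor that shares its promoter with malt-1 (1 of 45, or 2.22%, interval 0.0562 to 11.8, close to the share of all genes; 160.7 pooled, 63.4 in replicate 2 and 99.1 in replicate 3). Of 246 nuclear hormone receptor genes, nhr-47 (134.2) had one (0.407%, interval 0.0103 to 2.24), and of 1276 chemoreceptor genes sri-5 (210.1), a share of 0.0784% (interval 0.00198 to 0.436). Both nhr-47 and sri-5 shared a head-to-head promoter with another gene, dnj-19 in the first case. Of 305 F-box genes with the symbols fbxa, fbxb and fbxc, fbxb-85 (180.6) and fbxc-44 (170.9) had one (0.656%, interval 0.0795 to 2.35), and fbxl-2 (121.4) and fbxo-11.2 (114.1), outside that list, were also nearest genes of members. No member lay in the window of any of the 129 collagen, 106 neuropeptide, 237 C-type lectin, 67 cytochrome P450, 63 glucuronosyltransferase or 19 bHLH genes that these lists hold, which allows shares of up to 2.82%, 3.42%, 1.54%, 5.36%, 5.69% and 17.6% (exact 95% intervals). Of these limits only that of the C-type lectins is below 1.94%. The neuropeptide list holds the symbols flp, nlp and ins and the bHLH list hlh. Outside them, F28F9.3, which RefSeq names a neuropeptide-like protein (163.9), and aha-1, a bHLH-PAS factor (114.7), did have a member. Genes known by a sequence name alone had 100 of 7689, or 1.30% (1.06 to 1.58).

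**Figure D5:**
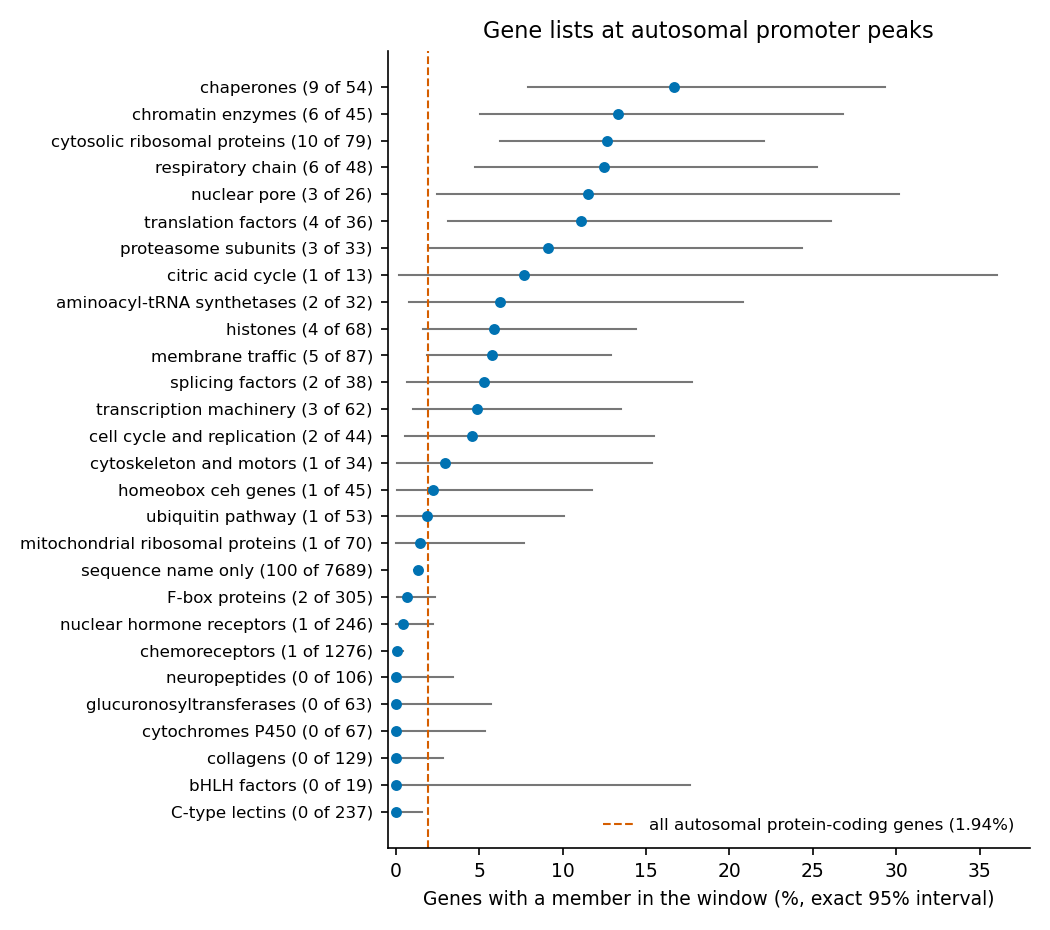
Share of genes with a member summit in the promoter window (horizontal axis, %) for 28 gene lists (vertical axis, with counts), as points with exact 95% intervals that cover counting error only. The dashed line is the 1.94% of all autosomal protein-coding genes. Chaperones (16.7%) are at the top, and 6 lists are at 0.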

How the data were processed

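Chromatin immunoprecipitation with an anti-GFP antibody was sequenced from 2 replicate samples of 1 group. The deposited peak lists were used: the reproducible list of 1112 peaks, a pooled list of 30000 regions, and 30000 and 29534 regions for replicates 2 and 3. Per the labels the assembly is ce11; the aligner, peak caller and reproducibility threshold are not given in the sources used here, nor is the control library. The signal value (column 7) was assigned by the authors' caller, and the −log10 q-value column that the authors deposited was not used in a test. Read depth is unknown, since no counts were analysed. Of the reproducible peaks, 1109 are among the 1112 strongest pooled regions. In 946 of the 1112 reproducible peaks the summit lay 218 bp from the start of the region. How the summits were set is not stated.

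Summits were placed on Ensembl release 115 (WBcel235) genes; the 5' end is that of the gene record. Replicate regions were matched by summits within 100 bp. Two-sided Fisher's exact tests on numbers of peaks were adjusted by Benjamini-Hochberg over 11 tests (threshold 0.05); peaks share libraries. The test of offsets between promoter classes stayed in this family but is not read, since the nearer of 2 ends fixes its direction. The 95% intervals of shares (Clopper-Pearson, exact) cover only the counting error. Nothing says whether the replicates came from separate cultures beyond their labelling as biological. Named genes are those of the 20 strongest members, the 10 strongest head-to-head members, the 4 strongest genes of each list, the strongest member on each autosome and the members at each bound; further genes of the lists, pairs on 1 gene and single cases were named with their values in view. The members and lists were chosen with earlier results of these data known. Sequences came from RefSeq's copy of the assembly. The counting was tested on simulated data. Tests ran in scipy 1.17.1 with numpy 2.4.6 under Python 3.11.15, and plots in matplotlib 3.10.9.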

Additional observations from a re-analysis of the deposited data

How the results depend on the processing

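The lists give 2 replicates and no depth. Differences under a factor of 1.48 between single promoters are within the SD of the replicate ratio, and a larger one can still be replicate spread. That factor comes from values of single replicates, while many values given are pooled. No setting here bears on dependence on the tag. Of 132 recomputed values, 103 kept their direction and their side of the threshold, or stayed within the range set for a count. The head-to-head share (odds ratio 2.49 to 4.71) and the lower share of GAGAG than at intergenic peaks (0.236 to 0.444) kept direction and call in all alternatives run. Some settings were added after seeing the data. No paired analysis was possible because there is 1 group. The cause of each change below was not tested.

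A window from 250 bp upstream gave 223 genes with a member, and only peaks above the median signal gave 142 members and 189 genes, as fewer peaks enter by construction. The odds ratio of summits within 100 bp in head-to-head against single members, a description whose direction the nearer of 2 ends fixes, was 2.18 and 1.80 under these settings and 1.79 to 2.69 without a replicate. The enrichment of GAGAG over regions below the set passed with a 1000 bp window (1.72), small RNA genes within 100 bp (1.42), any transcript's 5' end (1.53) and the lowest-ranked regions (2.25), and was 1.47 to 1.68 without a replicate. Tests that did not pass changed direction. Pooled signal by promoter class went to 0.858 with the 250 bp window. Without a replicate, the signal was that of the other replicate's own list and not the pooled one. It gave 0.842 to 0.913, below 1 like the values of each replicate in the main setting (0.825 and 0.849). Signal by class in replicate 2 went to 1.06 and in replicate 3 to 1.02 with the 1000 bp window. That in replicate 3 went to 1.09 above the median signal and 1.03 with a divergent neighbour within 1000 bp. The summit offset went to 1.16 with the 1000 bp window, 1.15 to 1.35 without a replicate, 1.08 with the lowest-ranked regions and 1.15 with a 150 bp class. Pooled signal by offset went to 0.927 above the median signal and 0.758 with a 50 bp class, where replicate 3 gave 0.867. In the own list of a single replicate it was 0.606 (replicate 2) and 0.725 (replicate 3).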
